A study of Rattus norvegicus with 9 samples.

Results

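Trh encodes the precursor of thyrotropin-releasing hormone (TRH), and Trhr encodes the receptor of that peptide. They were taken as the probe sets whose gene symbol in the platform annotation is Trh or Trhr, which gave 1 probe set for Trh (1368912_at) and 3 for Trhr (1369751_at, 1370736_s_at and 1387682_at), 4 of 31042 probe sets and 2 of 14217 named genes in all. Trh was selected on its differences between these same groups, which earlier results of these arrays had shown to be among the largest, and Trhr was added as its receptor with the same results known, so the values of both genes are given as a description, with no test.

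RNA of pancreatic islets from male Zucker Diabetic Fatty (fa/fa) rats was hybridised to 9 Affymetrix rat expression arrays. All rats carry the fa mutation of the leptin receptor gene, so every group is obese and leptin-resistant, and all were fed the Purina 5008 diet. The 3 treated arrays are from rats given rosiglitazone, a drug that activates the nuclear receptor PPAR gamma, in the diet as powdered Avandia tablets at 3 mg per kg body weight from week 5 of age and sampled at 9 weeks. The 3 withdrawal arrays are from rats given the drug from week 5 to week 9 and sampled at 11 weeks, 2 weeks after it was stopped. The 3 untreated arrays are from rats that never received it and were sampled at 13 weeks. Drug and age differ together between the groups and cannot be told apart. The labels call the arrays biological replicates of a study of 24 rats, and each RNA came from 20 to 30 mg of islets. The labels do not say how many rats stand behind an array, and if rats or islets were shared the p-values measure less than the spread between animals.

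TRH is a tripeptide best known as the hypothalamic hormone that makes the pituitary release thyrotropin and prolactin. It is cut from a larger precursor by prohormone convertases, trimmed, closed into a ring at its first residue and amidated at its last. Beta cells of rat islets also make it, most abundantly around birth. The receptor couples to G proteins of the Gq and G11 type, which raise calcium in the cell through phospholipase C, and thyroid hormone acting through its beta receptor represses Trh in the hypothalamus.

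In assembly GRCr8, Trh lies on chromosome 4 (chr4:126299236-126301762, minus strand) and Trhr on chromosome 7 (chr7:77233175-77277988). The 250 bases before the annotated start of Trh are shown because several of the transcription factors described further on are known to act on this promoter. The sequence is from RefSeq, GRCr8, chr4:126301763-126302012, minus strand, written 5′ to 3′. Capitals mark TGACCTCA and TATAA.

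Trh promoter: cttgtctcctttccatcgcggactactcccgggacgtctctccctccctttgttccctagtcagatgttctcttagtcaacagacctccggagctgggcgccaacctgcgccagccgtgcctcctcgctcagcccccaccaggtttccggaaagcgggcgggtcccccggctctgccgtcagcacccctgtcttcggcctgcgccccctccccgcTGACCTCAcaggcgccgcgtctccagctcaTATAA

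TGACCTCA, the letters of the element through which cAMP signals and thyroid hormone receptors act on the Trh promoter, was found once, 35 to 28 bases before the annotated start. Searched on both strands, it occurs in 2.31% of the 33469 promoter windows of the same length. TATAA, the letters of the core of a TATA box, ends at the last base before the annotated start, and 24% of the windows hold it. All distances are counted from the annotated start, and whether transcription begins there was not tested. The full cAMP response element TGACGTCA, held by 1.59% of windows, and the PPAR element, in which AGGTCA is repeated with 1 base between the copies and which 0.0508% hold, are not in these letters. The letters searched for do not overlap in this window, they were chosen with the sequence known, and a match does not show that a factor binds.

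Trh was highest on treated arrays, intermediate on withdrawal arrays and lowest on untreated arrays, and no 2 groups overlapped. Its deposited log2 values were 9.56, 8.38 and 9.09 on treated arrays, 7.86, 7.82 and 7.94 on withdrawal arrays and 5.86, 6.56 and 6.40 on untreated arrays. The lowest treated array was thus above the highest withdrawal array, by 0.43, and the lowest withdrawal array was above the highest untreated array, by 1.26. The treated mean was 9.01 ± 0.59 (SD, n = 3), the withdrawal mean 7.87 ± 0.06 and the untreated mean 6.28 ± 0.36. The withdrawal arrays lay within 0.12 of each other, while the treated arrays spread over 1.18 and the untreated arrays over 0.70.

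**Figure D1:**
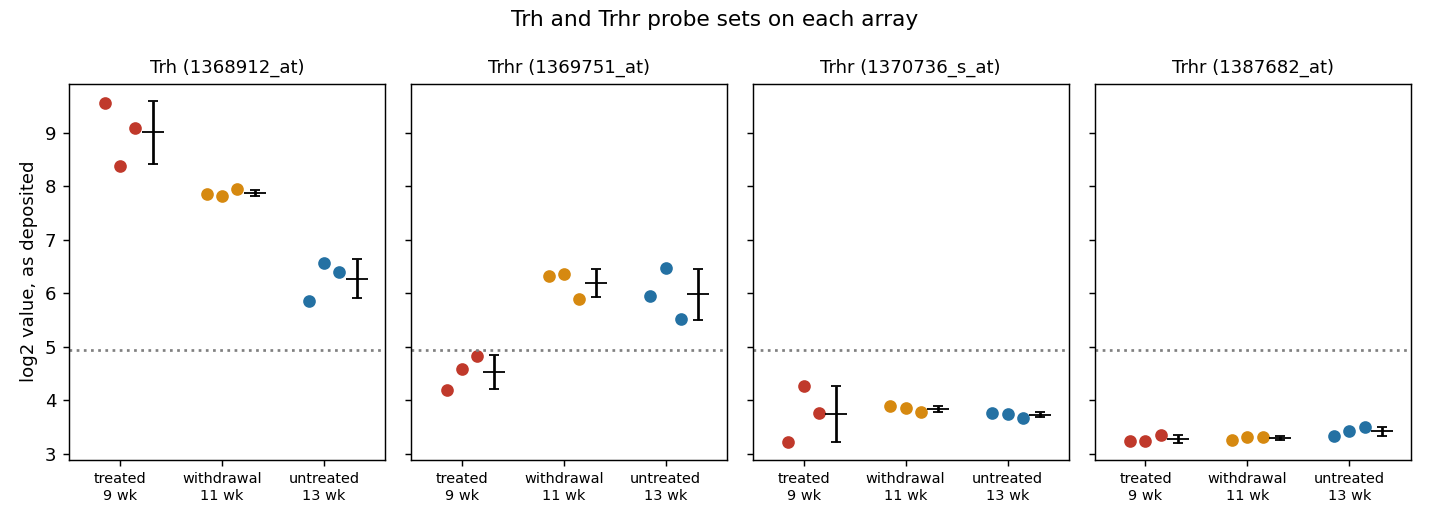
Deposited log2 values (y axis) of the probe set of Trh and the 3 probe sets of Trhr on each array, by group (x axis), with the mean and SD of 3 arrays in black and the brightness filter as a dotted line. Trh declines from the treated over the withdrawal to the untreated group, 1369751_at of Trhr is below 5 on the 3 treated arrays alone, and the other 2 probe sets of Trhr stay below the filter.

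Trh was 2.73 ± 0.26 (SE) higher on treated than on untreated arrays on the log2 scale, which is 6.65-fold. This was the second highest difference among 11619 genes, each represented by its brightest probe set. The rank is no separate result, since Trh was chosen for its large differences between these groups. Of the 20695 probe sets that passed the filter on dim signals, 42.9% had no overlap between these 2 groups. The median difference of all tested probe sets was 0.16, and that of all probe sets in the same brightness decile as Trh was 0.30. After quantile normalization, which gives all arrays the same distribution, the Trh difference was 2.36 and again the second highest.

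Trh was higher in rats sampled at 11 weeks, 2 weeks after the drug was stopped, than in untreated rats sampled at 13 weeks. Drug and age cannot be told apart in this comparison. Trh was 1.60 ± 0.26 (SE) higher on withdrawal than on untreated arrays, or 3.03-fold, and 1.74 higher after quantile normalization. Both differences were the fifth highest of the 11619 genes, a rank that the choice of Trh for its large differences likewise makes no separate result. In this comparison 18% of tested probe sets were free of overlap, and the median difference was −0.02.

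Between withdrawal and treated arrays the Trh difference was −1.13 ± 0.26 (SE), a level 2.19-fold lower on withdrawal arrays. These groups were free of overlap for 53.9% of tested probe sets. Probe sets of like brightness had a median difference of −0.42, and all tested ones −0.19. After quantile normalization the Trh difference was −0.62. It was −0.47 when the first treated array, on which Trh was brightest, was also left out before that normalization. The size of this step thus depended on the scaling more than that of the other 2 comparisons did. On the deposited scale the withdrawal mean lay above the untreated mean by 58.5% of the distance between the untreated and the treated mean. After quantile normalization this was 73.8%.

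The rank of a probe set on its own array does not depend on how the array was scaled. The percentiles of Trh among the 31042 probe sets were 94.7, 89.7 and 94.3 on treated arrays, 88.1, 88.0 and 88.1 on withdrawal arrays and 51.9, 66.8 and 62.5 on untreated arrays. By rank, too, all treated arrays were above all withdrawal arrays and these above all untreated arrays, but the gap between the lowest treated and the highest withdrawal array was small.

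**Figure D2:**
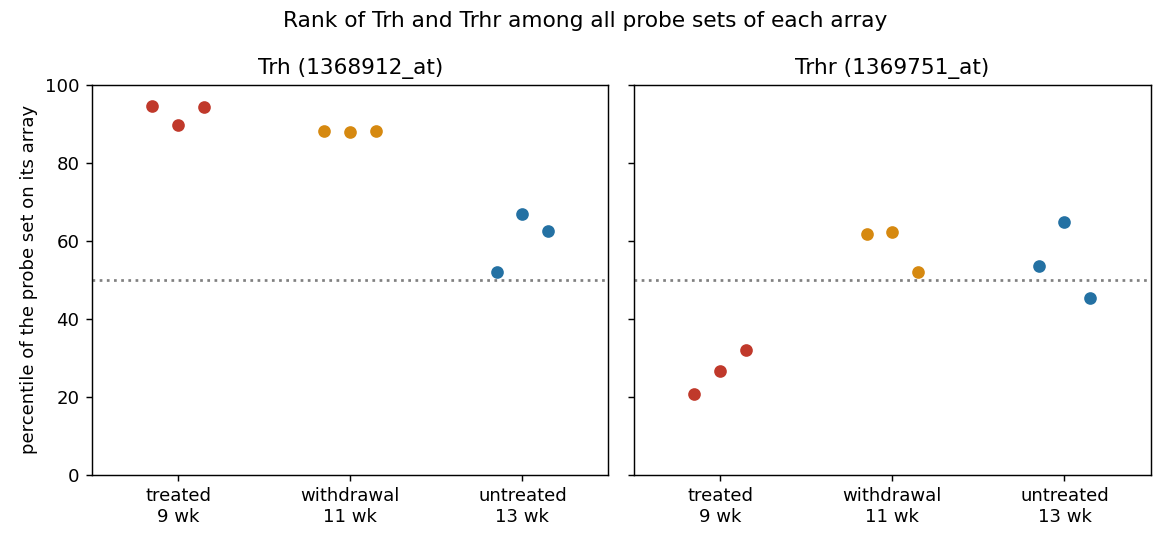
Percentile (y axis) of Trh and of the brightest Trhr probe set among all probe sets of the same array, by group (x axis), with the middle of the array as a dotted line. Trh stands at 89.7 to 94.7 on treated arrays, 88.0 to 88.1 on withdrawal arrays and 51.9 to 66.8 on untreated arrays, and Trhr stands at 20.7 to 32.04 on treated arrays alone.

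On 1 of its 3 probe sets, Trhr had its low values on the treated arrays, where Trh was highest. Its brightest probe set, 1369751_at, had log2 values of 4.19, 4.59 and 4.82 on treated arrays, 6.33, 6.36 and 5.90 on withdrawal arrays and 5.94, 6.47 and 5.53 on untreated arrays. All treated arrays were below all others, while the withdrawal and untreated groups overlapped. The treated mean was 4.53 ± 0.32 (SD, n = 3), the withdrawal mean 6.19 ± 0.26 and the untreated mean 5.98 ± 0.47.

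The difference in Trhr was −1.45 ± 0.23 (SE) on the log2 scale for treated minus untreated arrays and 1.66 ± 0.23 for withdrawal minus treated arrays. After quantile normalization these differences were −1.41 and 1.62. Over the 9 fits that omitted an array they ran from −1.67 to −1.20 and from 1.49 to 1.81. The treated values all lay below the brightness filter of 4.95, so no fold or rank is given.

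Between withdrawal and untreated arrays the difference in Trhr was 0.21 ± 0.23, smaller than the SD of the untreated arrays. This does not show that the levels are the same. Without the third untreated array the difference was −0.01. For Trhr the withdrawal mean was thus at or slightly beyond the untreated mean as seen from the treated one, while for Trh it lay between both. The difference between these patterns was not tested.

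The other 2 probe sets of Trhr did not show this arrangement. Probe set 1370736_s_at ran from 3.22 to 4.26 on treated, 3.78 to 3.90 on withdrawal and 3.68 to 3.77 on untreated arrays. Probe set 1387682_at ran from 3.23 to 3.36 on treated, 3.27 to 3.33 on withdrawal and 3.33 to 3.50 on untreated arrays. Both were below the brightness filter, at 4.95, on all 9 arrays. For treated minus untreated arrays they gave 0.02 ± 0.20 and −0.14 ± 0.10. The first array of the treated group was lowest and the second highest among all 9 for 1370736_s_at.

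The low treated values of Trhr therefore rest on 1 of its 3 probe sets. Of the 4 probe sets of both genes, 2 passed the filter on low values. 1369751_at passed it through its withdrawal and untreated values, since its treated values were all below the filter. With the mean of the 3 probe sets in its place, Trhr differed by −0.53 for treated minus untreated and by 0.59 for withdrawal minus treated arrays.

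**Figure D3:**
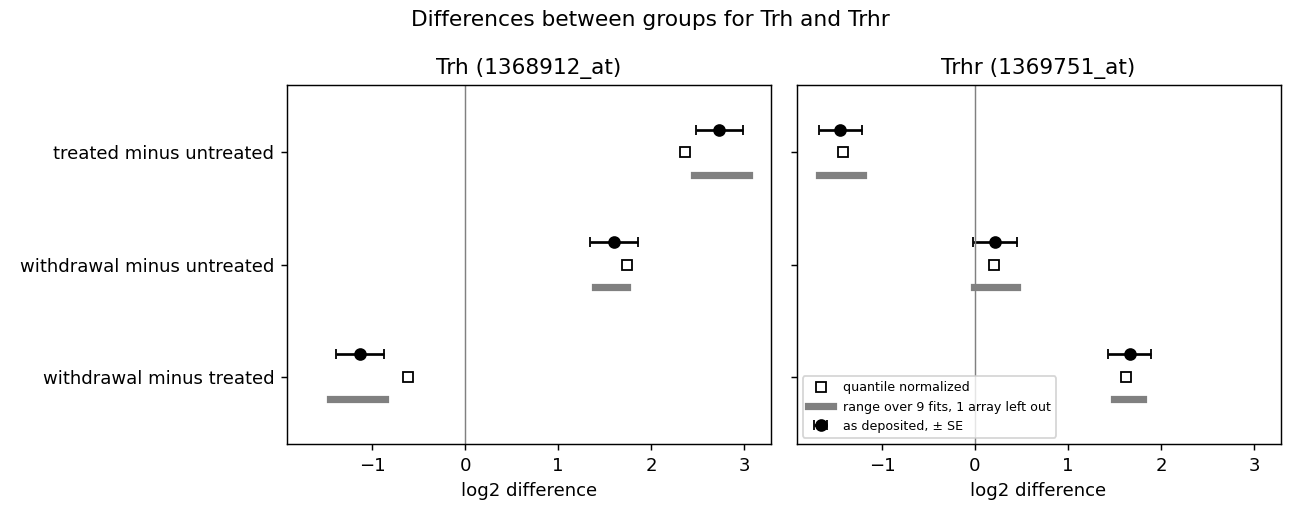
Log2 differences (x axis) between groups (y axis) for Trh and the brightest Trhr probe set, as deposited with the SE, after quantile normalization, and as the range over the 9 fits that left out 1 array. For Trh the step between withdrawal and treated arrays shrinks most with normalization, from −1.13 to −0.62. That between treated and untreated arrays shrinks from 2.73 to 2.36. For Trhr the difference between withdrawal and untreated arrays spans 0.

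A second rodent TRH receptor, Trhr2, is listed in the RefSeq gene table as a synonym of Mlnr, and 2 probe sets carry that symbol. The brighter one (1388008_at) had a treated mean of 5.80 ± 0.20 (SD, n = 3), a withdrawal mean of 6.02 ± 0.05 and an untreated mean of 5.96 ± 0.06, and passed in no comparison (smallest limma adjusted p = 0.168). The dimmer one (1388009_at) lay between 3.77 and 4.15 on all arrays.

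Bulk islet RNA cannot tell fewer cells of a type from less RNA per cell, and marker lists of cell types differed between the groups as well. The 9 measured beta cell markers were all above the array medians, with list means of 11.20 to 11.25 on treated, 10.41 to 10.57 on withdrawal and 10.55 to 10.77 on untreated arrays. These deposited means were thus highest on treated arrays, as Trh was, but the withdrawal mean of 10.48 was below the untreated mean of 10.69, with overlapping ranges. Trh was instead higher on withdrawal than on untreated arrays. As deposited, 5 of the 9 beta cell markers were called higher on treated than on untreated arrays, where 20.9% of all tested probe sets were. After quantile normalization 1 was, against 7.75% of all, and the median difference of the 9 went from 0.61 to 0.15. The 7 markers of other islet hormone cells ran from 9.91 to 10.26 on treated, 9.09 to 9.29 on withdrawal and 9.29 to 9.48 on untreated arrays, and 6 of the 7 were above the array medians. Of these 7, 3 were called higher on treated than on untreated arrays on both scales, against 20.9% and 7.75% of all. On withdrawal relative to treated arrays 5 of the 7 were called lower as deposited and 4 after quantile normalization. For the 9 beta cell markers these counts were 6 and 3. Of all tested probe sets 32.6% and 14.6% were called lower there. The 7 lymphocyte markers were dim, at 5.22 to 5.47 on treated, 5.68 to 5.89 on withdrawal and 5.52 to 5.56 on untreated arrays, low on treated arrays as Trhr was, with 2, 4 and 2 of them above the array medians.

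The list means of macrophage and stellate cell markers were higher on withdrawal than on untreated arrays, as Trh was. The 6 macrophage markers, of which 4 were above the array medians, had list means of 6.13 to 7.53 on treated, 7.13 to 7.31 on withdrawal and 6.61 to 6.78 on untreated arrays. Those of the 6 stellate markers, all above the medians, averaged 9.90 ± 0.65 (SD, n = 3), 10.14 ± 0.09 and 9.76 ± 0.22 in the same groups. In both lists these means did not overlap between withdrawal and untreated arrays, but no single marker passed between them (limma, smallest adjusted p = 0.536, for Itgam). The stellate marker Dcn went the other way, at 9.50 to 9.85 on withdrawal and 9.59 to 10.12 on untreated arrays. Other markers of both lists overlapped between these groups, among them Lyz2 and Col3a1. The treated arrays of these lists spread widely and reached below the withdrawal arrays, where those of Trh did not. As deposited, 0 of the 6 stellate and 1 of the 4 tested macrophage markers were called higher on withdrawal than on treated arrays. After quantile normalization 6 and 2 were. Over all tested probe sets these shares were 11.2% and 14.5%. Within the treated group most markers of both lists were highest on the first array and lowest on the second, as Trh was. Among them were Cd68 (8.13, 6.25 and 7.01), Lyz2 (12.36, 10.24 and 11.50) and Col1a1 (11.77, 9.92 and 11.16). The duct cell marker Spp1 (11.63, 9.26 and 10.54) had the same order. Itgam was instead highest on the third treated array, and Pdgfrb was highest on the second and lowest on the third. The part of all these markers in the results for Trh and Trhr was not tested.

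Markers of the tissues in which TRH and its receptor are best known were dim. Of 6 hypothalamic and pituitary genes, 1 was above the array medians, the vasopressin gene Avp, at 6.70 to 7.65 over the 9 arrays. The corticotropin-releasing hormone gene Crh lay between 2.85 and 3.51. The pituitary hormone genes Prl and Tshb, targets of TRH in the pituitary, lay between 3.49 and 3.78 and between 4.05 and 4.81. The 8 acinar markers, of the exocrine pancreas, were far above the array medians, with list means of 13.84 to 13.97 on the treated, 13.78 to 13.93 on the withdrawal and 13.81 to 13.93 on the untreated arrays. The highest value of an array was 14.17 to 14.36, so these markers lay near the top of the scale, as did Ins1 and Ins2. How far this hides differences between the groups was not tested.

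Genes that act around TRH were read from lists of peptide processing, peptide breakdown, receptor signalling, the thyroid hormone axis and factors acting on Trh transcription, together with Mlnr. Of 63 tested genes, 16 rose and 2 fell on treated relative to untreated arrays, shares of 25.4% and 3.17%. Over all tested probe sets 20.9% were called higher and 7.24% lower, so the shares were near those of the whole array. After quantile normalization 11 of the 63 rose and 8 fell, against 7.75% and 9.44% of all. On that scale both shares were thus above those of the whole array, more so for the genes that rose. Whether the lists differ from the whole array was not tested. On withdrawal relative to treated arrays 4 rose and 21 fell, 6.35% and 33.3%, where 11.2% and 32.6% of all probe sets were called. After quantile normalization 8 rose and 8 fell, against 14.5% and 14.6% of all. Between withdrawal and untreated arrays limma called 0 of the 63, where 0.159% of all probe sets were called. At an unadjusted limma p under 0.05, 5 of the 63 passed there. The share of all probe sets at that threshold was not counted, so this is no result about the lists. The smallest adjusted p was 0.147, for Scg5.

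Of 10 measured genes of peptide processing, 3 rose, 1 fell and 6 did not pass on treated relative to untreated arrays, with a median difference of 0.36 against 0.16 for all probe sets. Over all tested probe sets 20.9% were called higher and 7.24% lower. After quantile normalization 2 rose and 3 fell, against 7.75% and 9.44% of all, and the median was −0.05. Pcsk2, a prohormone convertase of the secretory granule, was at 12.5 ± 0.16 (SD, n = 3) on treated and 11.4 ± 0.31 on untreated arrays and rose by 1.11 ± 0.17 (limma, adjusted p = 0.00207). Pcsk1n, which encodes an inhibitor of the convertase Pcsk1, rose by 1.09 ± 0.15, and Cpd, a carboxypeptidase of the secretory pathway, rose by 0.49 ± 0.14, a call lost in 2 of the 9 fits that left out an array. Pcsk5, another convertase, fell by 0.66 ± 0.19, a call lost in 3 of the 9 fits that left out an array and not shared in sign by 1 of its 2 other probe sets. Pcsk2 and Pcsk1n also passed after quantile normalization, at 0.63 and 0.59, while Cpd did not, at 0.04. Cpe, the carboxypeptidase that trims basic residues in granules, differed by 0.48 ± 0.19 (adjusted p = 0.0721). Qpct, the enzyme that closes the ring at the first residue, differed by −0.17 (adjusted p = 0.402). Pam, which amidates the peptide, differed by 0.06 (adjusted p = 0.795) as deposited and by −0.43 after quantile normalization, where it passed, and its 2 other probe sets had the opposite sign to the deposited value.

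On withdrawal relative to treated arrays 5 of the 10 processing genes fell and 0 rose, where 32.6% of all tested probe sets were called lower and 11.2% higher. After quantile normalization 2 fell and 1 rose, against 14.6% and 14.5% of all. Pcsk2 fell by 1.05 ± 0.17 (limma, adjusted p = 0.00126) and Pcsk1n fell by 1.25 ± 0.15, and both passed after quantile normalization, at −0.42 and −0.51. Scg5, which encodes the chaperone 7B2 of Pcsk2, fell by 0.81 ± 0.17, Cpd fell by 0.70 ± 0.14 and Cpe fell by 0.57 ± 0.19. These 3 did not pass after quantile normalization, and the Cpe call was lost in 2 of 9 fits that left out an array. Pcsk2 was at 11.5 on withdrawal and 11.4 on untreated arrays, a difference of 0.06 ± 0.17 (adjusted p = 0.968), whereas Trh was 1.60 higher in that comparison.

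Of the enzymes that break TRH down, the TRH-degrading ectoenzyme gene Trhde was below the filter, at 3.33 to 3.43 on treated, 3.34 to 3.75 on withdrawal and 3.43 to 3.66 on untreated arrays. Prep, a prolyl peptidase, rose by 0.53 ± 0.15 on treated relative to untreated arrays (limma, adjusted p = 0.0239) and fell by 0.54 ± 0.15 on withdrawal relative to treated arrays, and passed in neither after quantile normalization, with the calls lost in 2 and 1 of 9 fits that left out an array. Pgpep1, which removes the first residue of TRH, differed by 0.67 ± 0.29 (adjusted p = 0.0964) between treated and untreated arrays, its treated values varying with an SD of 0.70.

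Of 22 tested genes of Gq and calcium signalling, 5 rose, 0 fell and 17 did not pass on treated relative to untreated arrays, with a median of 0.15. Of all tested probe sets 20.9% were called higher and 7.24% lower. After quantile normalization 4 rose and 2 fell, against 7.75% and 9.44% of all, and the median was −0.05. The largest of these differences were in 2 genes of RGS proteins, which shorten signals of G proteins. Rgs2 was at 10.1 ± 0.14 (SD, n = 3) on treated and 8.49 ± 0.27 on untreated arrays and rose by 1.62 ± 0.24 (limma, adjusted p = 0.00188). Rgs4 rose by 1.21 ± 0.25, and both passed after quantile normalization, at 1.08 and 0.70. Prkcb, a protein kinase C, rose by 0.88 ± 0.22, with 1 of its 2 other probe sets of opposite sign and the call lost without the second untreated array. Gna11, the alpha subunit of G11, rose by 0.44 ± 0.14 and the receptor kinase Grk2 by 0.43 ± 0.13, calls lost in 8 and 5 of the 9 fits that left out an array. Gnaq, the alpha subunit of Gq, differed by 0.16 (adjusted p = 0.303), and the phospholipase genes Plcb1, Plcb2, Plcb3 and Plcb4 did not pass as deposited. Plcb1 was called lower after quantile normalization, at −0.32 (adjusted p = 0.0449).

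On withdrawal relative to treated arrays 6 of the 22 signalling genes fell and 2 rose, where 32.6% of all tested probe sets were called lower and 11.2% higher. After quantile normalization the balance turned, with 2 lower and 3 higher, against 14.6% and 14.5% of all. With 1 array left out 2 to 9 of the 22 were called in all, the lowest without the second withdrawal array. Rgs2 fell by 1.32 ± 0.24 (limma, adjusted p = 0.00191), Rgs4 fell by 0.85 ± 0.25 and Plcb4, a phospholipase C, fell by 0.74 ± 0.18. After quantile normalization Plcb4 passed, at −0.59, while Rgs2 and Rgs4 did not, at −0.63 and −0.17. Itpr1, a calcium release channel of the endoplasmic reticulum, fell by 0.45 ± 0.13 and did not pass after quantile normalization, at −0.19. Without the second withdrawal array the calls of Rgs4 and Itpr1 were lost. Plcb2 and the protein kinase C gene Prkca rose by 0.56 ± 0.16 and 0.46 ± 0.14 and passed on both scales, but the call of Plcb2 was lost in 1 and that of Prkca in 3 of 9 fits that left out an array.

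**Figure D4:**
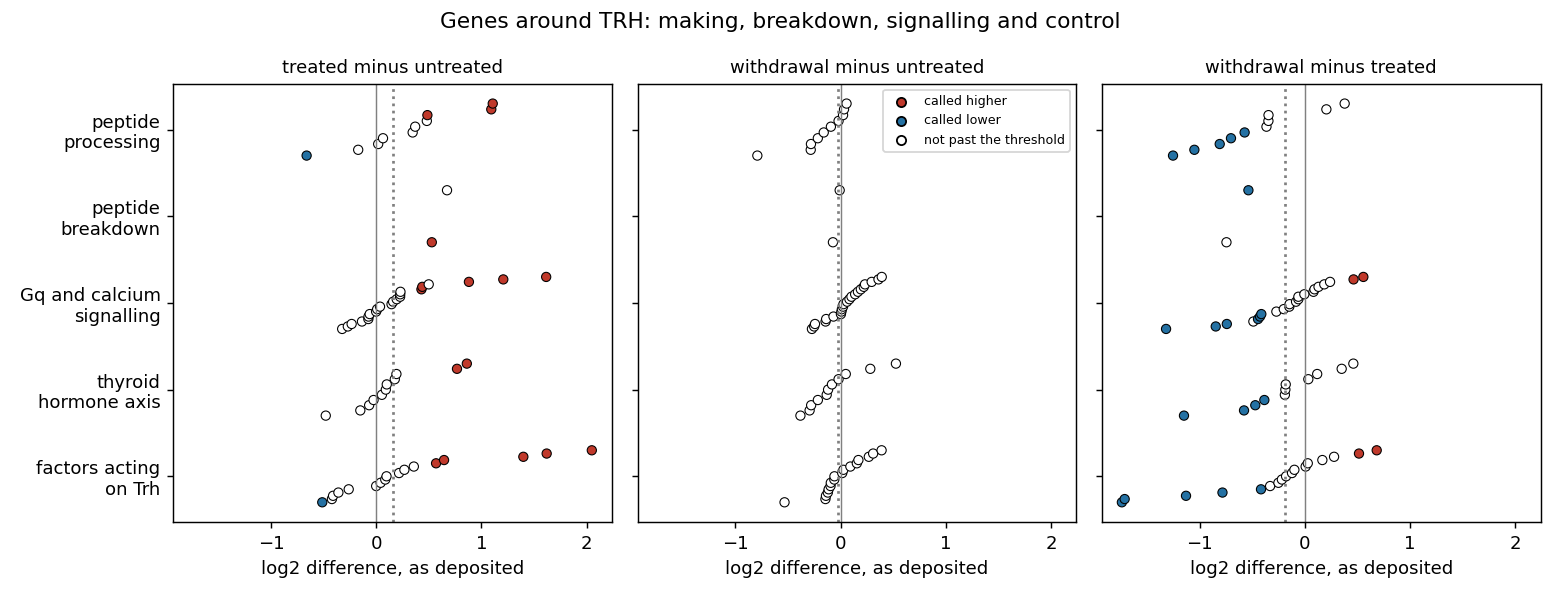
Log2 differences as deposited (x axis) of the tested genes of each list (y axis) in the 3 comparisons, filled where limma called them, with the median of all tested probe sets as a dotted line. Between withdrawal and untreated arrays no gene of these lists is called, and most calls in the other panels are higher under treatment.

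Of 20 measured genes of the thyroid hormone axis, 9 were below the filter, among them the deiodinase genes Dio1 and Dio2, the thyrotropin receptor gene Tshr, Tshb and Prl. Of the 11 tested, 2 rose and 0 fell on treated relative to untreated arrays, against 20.9% and 7.24% of all tested probe sets. After quantile normalization 2 rose and 1 fell, against 7.75% and 9.44% of all. Between withdrawal and treated arrays 4 of the 11 fell and 0 rose, against 32.6% and 11.2% of all. After quantile normalization 2 fell and 1 rose there, against 14.6% and 14.5% of all. Thrb, the thyroid hormone receptor beta, was at 8.33 ± 0.22 (SD, n = 3) on treated and 7.56 ± 0.17 on untreated arrays and rose by 0.77 ± 0.14 (limma, adjusted p = 0.00469), and its 3 other probe sets had the same sign. Slc16a10, a transporter of aromatic amino acids and thyroid hormone, rose by 0.86 ± 0.15. On withdrawal relative to treated arrays Thrb fell by 1.15 ± 0.14 (adjusted p = 0.000736) and Slc16a10 fell by 0.58 ± 0.15, and both genes passed in both comparisons after quantile normalization. Thra, the alpha receptor, differed by 0.09 ± 0.15 (adjusted p = 0.655) between treated and untreated arrays, and fell by 0.39 on withdrawal relative to treated arrays, a call lost in 6 of 9 fits that left out an array.

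Of 17 tested factors that act on Trh transcription in the hypothalamus, 5 rose, 1 fell and 11 did not pass on treated relative to untreated arrays. Of all tested probe sets 20.9% were called higher and 7.24% lower. After quantile normalization 3 factors rose and 2 fell, against 7.75% and 9.44% of all. Fos, Egr1 and Jun, immediate early transcription factors, rose by 2.05 ± 0.36, 1.62 ± 0.31 and 1.40 ± 0.24 (limma, adjusted p = 0.00344, 0.00524 and 0.00331), and also passed after quantile normalization. A dimmer probe set of Fos had the opposite sign. Socs3, an inhibitor of leptin and cytokine signals, rose by 0.57 ± 0.16 and Atf1, a factor that binds cAMP response elements, rose by 0.64 ± 0.21, neither past the threshold after quantile normalization. With 1 array left out the Socs3 call was lost in 2 and the Atf1 call in 7 of 9 fits. Lepr, the leptin receptor gene that carries the fa mutation in these rats, fell by 0.51 ± 0.15 (adjusted p = 0.0283), with its 6 other probe sets of the same sign, a call lost in 2 of 9 fits that left out an array. Creb1, the main cAMP-responsive factor, differed by −0.26 ± 0.14 (adjusted p = 0.164) and Stat3, which carries the leptin signal, by 0.27 ± 0.16 (adjusted p = 0.229). Pparg, the target of the drug, differed by 0.09 ± 0.13 (adjusted p = 0.628) at values near 5.2 in all groups, below the array medians.

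On withdrawal relative to treated arrays 5 of these factors fell and 2 rose, where 32.6% of all tested probe sets were called lower and 11.2% higher. After quantile normalization the balance turned, with 2 lower and 3 higher, against 14.6% and 14.5% of all. Egr1 fell by 1.71 ± 0.31, Fos fell by 1.74 ± 0.36 and Jun fell by 1.13 ± 0.24, and Lepr rose by 0.68 ± 0.15 (limma, adjusted p = 0.00476). Jun did not pass after quantile normalization, at −0.34. Between withdrawal and untreated arrays Fos, Egr1, Jun, Thrb and Pcsk2 differed by 0.31, −0.09, 0.27, −0.38 and 0.06, none past the threshold.

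The genes whose values over the 9 arrays were most like those of Trh, by Pearson correlation among 11502 genes with a settled symbol, were Jak3, Lactb, Lsm10, Abcc3, Tff3 and Gar1, with r of 0.98, 0.96, 0.95, 0.95, 0.94 and 0.94. These values describe likeness only, since the 9 arrays form 3 groups, and 54 genes had r above 0.9. On the deposited scale each had its mean on withdrawal arrays between those of the other 2 groups, with smaller steps than Trh. After quantile normalization this was lost for 2 of the 6, Jak3 and Abcc3, whose withdrawal means were 0.03 and 0.17 above the treated ones. The trefoil peptide gene Tff3 had the widest, with a treated mean of 8.24 ± 0.04, a withdrawal mean of 7.65 ± 0.09 and an untreated mean of 6.98 ± 0.37. Jak3, a tyrosine kinase of cytokine receptors, had 7.80 ± 0.08, 7.49 ± 0.03 and 7.16 ± 0.10 in the same groups.

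The most opposed genes were Gpr6, Dnaaf5, Odad4 and Ccdc61, with r of −0.96, −0.94, −0.92 and −0.92. Gpr6, a receptor that couples to cAMP production, had a treated mean of 6.64 ± 0.25 (SD, n = 3), a withdrawal mean of 7.01 ± 0.06 and an untreated mean of 8.02 ± 0.06. Trhr, which lacked the intermediate withdrawal level, had r = −0.67 on its brightest probe set, the treated values of which lay below the filter.

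**Figure D5:**
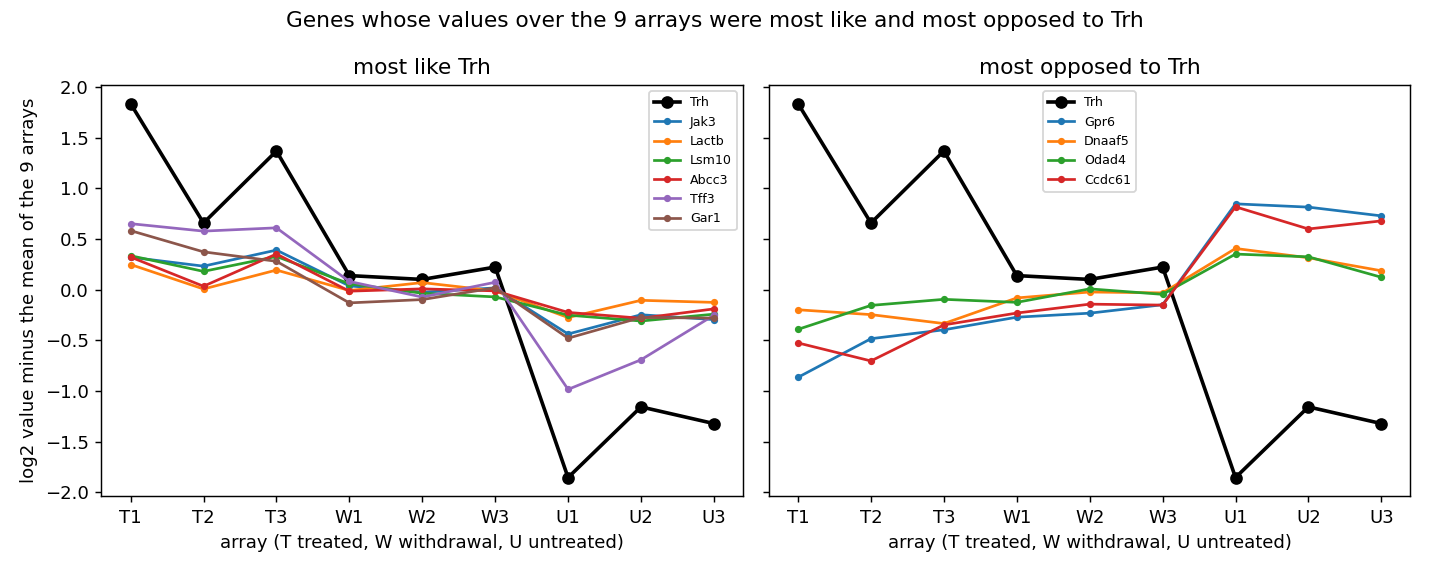
Log2 values minus each gene's mean over the 9 arrays (y axis) for Trh, the 6 genes most like it and the 4 most opposed, by array (x axis). On this scale, as deposited, the withdrawal mean of each of the 10 genes lies between its treated and untreated means, and Trh has the widest range.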

How the data were processed

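The authors deposited 1 table of log2 values per probe set and array. The scale was read from the values, which are positive, without zeros and at most 14.4. The programs named, per the submitters' processing notes, are RMA and MAS5, whose roles and versions are not given in the sources used here. The distributions differ between arrays, with a standard deviation of 1.65 to 2.00, widest on treated arrays. Replicates correlated at 0.973 to 0.995. Of 31099 probe sets, 57 controls were left out. Of the other 31042, 20826 had 1 gene symbol, updated through the RefSeq gene table of GRCr8 (20758 matched by gene number), 436 had several and were not named, and 9780 are not named here. The dimmest 33.3% by mean log2 were not tested, which left 20695.

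Differences came from limma 3.58.1 (lmFit, eBayes) in R 4.3.3 with a term per group over all 9 arrays and Benjamini-Hochberg adjustment over all tested probe sets at 0.05. The fit that had been planned to give p-values for Trhr is given without them, since Trhr was proposed with its values known. Probe sets below the filter were read from the unfiltered fit. A gene other than Trh and Trhr was read from its brightest probe set. The number of arrays limits the precision. Pcsk1 is not named on the array here. Named genes were Trh and Trhr, in each comparison up to 6 genes with the smallest p of each of 6 lists, a fixed set, and the 6 genes most like and 4 most opposed to Trh; not all were printed. Genes named for other reasons were chosen after their values were seen. The genes and lists were chosen with earlier results of these data known. The samples' replicate numbers were checked for pairing, and the tests were tested on simulated data. The alternatives were quantile normalization, median centring, other filters, trended and robust eBayes, array weights, a fit of 6 arrays, a block for the replicate number, 1 array left out at a time, and averaging the probe sets of Trhr. Offsets for linear values were not run. Figures used Python 3.11.15 and matplotlib 3.10.9.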

Additional observations from a re-analysis of the deposited data

How the results depend on the processing

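The Trh differences kept their direction under all alternatives run, at 2.46 to 3.05 for treated minus untreated, 1.39 to 1.74 for withdrawal minus untreated and −1.45 to −0.86 for withdrawal minus treated arrays with 1 array left out. This is no separate support, since Trh was chosen for its large differences. Leaving out 1 array cannot reverse groups that do not overlap. The filters, the eBayes settings and the replicate block do not alter a difference of means. For withdrawal minus treated arrays, quantile normalization without the first treated array, chosen after seeing the data, gave −0.47. Its change from the main value of −1.13 was larger than the SD of the treated arrays, 0.59, while the difference of −0.47 itself was smaller. Trh has 1 probe set, so averaging probe sets changed nothing. With the dimmest 50% of probe sets left out, Trhr was among those left out and has no value. The Trhr differences ran from −1.67 to −1.20, from −0.01 to 0.46 and from 1.49 to 1.81 in the same comparisons with 1 array left out. The value of −0.012, without the third untreated array, was the only reversal.

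Counts of calls moved more. The fit called 5817 probe sets between treated and untreated arrays, 3558 after quantile normalization, 3209 in a fit of only the 6 arrays and 2033 to 6319 with 1 array left out, the lowest without the second untreated array. Between withdrawal and treated arrays they were 9057, 6032 after quantile normalization and 5587 to 9511, the lowest without the second withdrawal array. Between withdrawal and untreated arrays they were 33, with 87 after quantile normalization, 3275 with array weights, 494 with only the 6 arrays, 409 after quantile normalization without the first treated array, and 7 to 398 with 1 array left out, the highest without the first treated array. Of the 63 genes around TRH, 18 were called between treated and untreated arrays, 11 with only the 6 arrays and 10 to 21 with 1 array left out. Between withdrawal and treated arrays 25 were called, 16 after quantile normalization and 13 to 31 with 1 array left out. The lowest of these counts came without the second untreated and without the second withdrawal array. Between withdrawal and untreated arrays 0 were called, 1 after quantile normalization, 9 with array weights, 2 with only the 6 arrays, 3 with the added normalization and 0 to 2 with 1 array left out. The cause of these changes was not tested, except that fits of fewer arrays rest on fewer samples.

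With the replicate number as a block, 50 probe sets were called between withdrawal and untreated arrays. The Trh and Trhr differences were unchanged, which the design fixes, since each replicate number occurs once in each group. Deviations of same-numbered arrays correlated at −0.28 to 0.50, above 0.1 in 5 of 9 pairs, and 2 of 9 arrays correlated best with their own number, so the numbers were not taken to pair the arrays. Of the 6 genes most like Trh, 0 were among the first 6 after quantile normalization and 3 by Spearman correlation. Trhr on treated arrays lay below the brightness filter, and how far background signal limits its level there was not tested.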

Other observations

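Which genes resembled Trh depended on the scaling. After quantile normalization the 6 genes most like Trh were Sdf2l1, Plpp5, Apex1, Eif3l, Sdc4 and Creld2, with r of 0.97, 0.97, 0.96, 0.95, 0.95 and 0.94 over the 9 arrays. Sdf2l1 and Creld2 encode proteins of the endoplasmic reticulum that take part in protein folding. Their r on the deposited values was 0.93 and 0.88. The most opposed were Tgoln2, Ccng1, Rgs16 and Txnip, with r of −0.99, −0.98, −0.97 and −0.97. Rgs16, a regulator of G protein signals, and Txnip, the thioredoxin-interacting protein gene that glucose induces, had r of −0.91 and −0.85 on the deposited values, where they ranked the seventh and 30th lowest. For Tgoln2 and Ccng1 the deposited values gave only −0.07 and −0.22.

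Prkd1, a kinase that acts below protein kinase C, lay below the filter and entered no test in the report. Its treated mean was 4.44 ± 0.21 (SD, n = 3), its withdrawal mean 3.68 ± 0.10 and its untreated mean 3.83 ± 0.03.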
